A study of Mus musculus with 4 samples.

Results

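The 6 genes described here, Oga, Ogt, Gfpt1, Gnpnat1, Pgm3 and Uap1, encode the enzymes that make the sugar donor UDP-GlcNAc and that put its sugar onto proteins and take it off again. They were picked by symbol from the 32285 genes of the count matrices, and all 6 had UMIs (unique molecular identifiers, counted transcript molecules) in each library. The choice was made with measured values of these data in view: the group was selected on the high ratio of Oga between imeglimin and vehicle in beta-like cells at 3.9 mM glucose, so the values of that comparison are a description here and support nothing. Islets of wild-type C57BL6J male mice 8 weeks old were cultured for 24 h in 4 conditions, namely DMSO vehicle at 3.9 mM glucose, 1 mM imeglimin at 3.9 mM, DMSO vehicle at 11.1 mM and 1 mM imeglimin at 11.1 mM. Imeglimin is an oral glucose-lowering drug. Each condition gave 1 single-cell RNA-seq library (10x 3' chemistry), and how many mice gave the islets is not given in the sources used here.

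Hexosamine synthesis branches off glycolysis. GFPT1 (gene Gfpt1), its first and rate-limiting enzyme, joins a fructose phosphate with the amino group of glutamine; GNPNAT1 then acetylates the product, PGM3 moves its phosphate, and UAP1 couples it to a nucleotide to give UDP-GlcNAc. OGT transfers the sugar from UDP-GlcNAc to serines and threonines of nuclear, cytoplasmic and mitochondrial proteins, and OGA removes it. In islets this modification is known to sit on transcription factors such as PDX1, and OGT is abundant there. Transcripts of Ogt and of Oga exist in other cells with an intron left in, which holds them in the nucleus, and splicing of that intron is known to respond to O-GlcNAc levels.

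By the mouse annotation (GENCODE vM21, mm10) Oga lies on chromosome 19 (45750259 to 45783837, minus strand), Ogt on X (101640060 to 101684351, plus) and Gfpt1 on 6 (87042846 to 87092197, plus). Gnpnat1 lies on 14 (45376334 to 45404913, minus), Pgm3 on 9 (86554377 to 86571842, minus) and Uap1 on 1 (170141938 to 170174957, minus). Of 6 annotated Oga transcripts 2 retain an intron, as do 3 of 7 for Ogt; counts from 3' ends were summed per gene and do not tell these forms apart. Gnpnat1 overlaps Styx, Pgm3 overlaps Dop1a, and the 3' end of Oga overlaps the antisense gene Gm15491, each on the opposite strand. Use of strand in counting is not given in the sources used here, so part of a count could belong to the partner. In beta-like cells Gm15491 was at 1.28, 0.697, 0.389 and 0.645 CPM (counts scaled to a common library total) in the order of the 4 conditions above, Styx at 4.31 to 5.53 and Dop1a at 31.6 to 36.4.

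The 250 bases before the start site (RefSeq, GRCm38.p6) are shown for Oga, Ogt and Gfpt1. Over the 4 beta-like libraries Ogt and Gfpt1 had the same order of levels, and Oga had a different one. Capitals mark the matches, on either strand, to 5 short words linked in the literature to promoter factors. They are the CCAAT box, spelled as named, and the GC box, spelled GGGCGG. A further word is the core of elements bound by XBP1, spelled ACGTG. The core of a cyclic AMP response element is spelled TGACGT and can share bases with the word before it. The last is a composite element bound by the stress factor ATF4, spelled TGATGCAA. The windows are chr19:45783554-45783803 (minus), chrX:101639801-101640050 (plus, the first of 2 listed starts) and chr6:87042596-87042845 (plus).
Oga: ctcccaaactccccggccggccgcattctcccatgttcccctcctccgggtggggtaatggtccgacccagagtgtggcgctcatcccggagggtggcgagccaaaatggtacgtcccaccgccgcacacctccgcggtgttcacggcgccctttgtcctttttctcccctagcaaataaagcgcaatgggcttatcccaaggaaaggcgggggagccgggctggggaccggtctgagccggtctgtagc
Ogt: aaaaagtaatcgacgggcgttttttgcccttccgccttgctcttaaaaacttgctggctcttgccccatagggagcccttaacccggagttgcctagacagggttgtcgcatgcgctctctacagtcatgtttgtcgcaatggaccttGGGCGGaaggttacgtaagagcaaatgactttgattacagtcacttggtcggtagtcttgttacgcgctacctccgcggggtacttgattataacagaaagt
Gfpt1: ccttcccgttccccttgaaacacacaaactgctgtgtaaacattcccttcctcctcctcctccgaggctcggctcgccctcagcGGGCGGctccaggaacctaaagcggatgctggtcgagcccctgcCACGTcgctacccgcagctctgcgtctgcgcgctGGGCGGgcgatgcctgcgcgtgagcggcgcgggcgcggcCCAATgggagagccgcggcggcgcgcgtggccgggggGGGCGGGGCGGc
The Oga window (64.4% G and C) held none of the 5 words, the Ogt window (49.6%) 1 GC box, and the Gfpt1 window (72%) 1 CCAAT box, 4 GC boxes and 1 ACGTG core. Of 32851 such windows in the RefSeq table, 33.8% held a CCAAT box, 32.7% a GC box, 16.6% an ACGTG core, 6.47% TGACGT and 0.791% TGATGCAA. Windows were found for 5 of the 6 genes. A match is a run of letters, not a shown binding site.

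Kept cells numbered 7166, 8755, 7444 and 8427 in the order given above, with median depths of 8832 to 12035 UMIs. Classes were named from clusters of the 4 libraries together, by marker genes, and end in "-like". Beta-like cells numbered 4393 to 5448 a library, with 17.3% to 43.9% of their UMIs from 8 beta markers such as Ins1 and Ins2. Alpha-like cells (740 to 1623) had 11.3% to 14.6% from 7 alpha markers, but also 4.89% to 9.66% from 4 pancreatic polypeptide (pp) cell markers, and no class was named pp-like. Delta-like cells (324 to 643) had 1.83% to 6.74% from 5 delta markers beside 1.998% to 8.98% from pp markers and 10.0% to 15.2% from beta markers, so the delta-like values are those of cluster 12, which carries these markers together. Endothelial-like (171 to 423 cells), macrophage-like (145 to 186) and stromal-like (78 to 168) cells were smaller classes. From 15 to 24 cell barcodes of kept cells were shared by any pair of libraries. Beta-like cells of the 4 conditions mostly fell into different clusters: cluster 2 held 91.1% of those of vehicle at 3.9 mM, and clusters 4 and 8 held 65.4% and 26.3% of those of imeglimin at 3.9 mM. At 11.1 mM, clusters 17, 3 and 7 held 49.5%, 27.7% and 16.0% of vehicle beta-like cells, and clusters 9 and 7 held 51.1% and 37.6% of imeglimin ones. With 1 library per condition no difference could be tested or checked against replicates; a bracketed range is a 95% interval for counting error only.

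Oga, which encodes the enzyme that removes O-GlcNAc, was higher with imeglimin in beta-like cells. The UMIs of all cells of a class were added up in each library and scaled by the trimmed mean of M-values (TMM), then given as CPM. Oga was at 23.5 CPM with vehicle and 104 CPM with imeglimin at 3.9 mM, from 1820 and 5357 UMIs, and at 48.9 and 62.1 CPM at 11.1 mM, from 3268 and 4338 UMIs. The lowest library was therefore vehicle at low glucose and the highest imeglimin at the same glucose. The log2 ratio of imeglimin over vehicle was 2.14 (2.07 to 2.22), or 4.42-fold, at 3.9 mM and 0.34 (0.28 to 0.41), or 1.27-fold, at 11.1 mM. At 3.9 mM this was the 8th highest of 5998 genes that reached 20 CPM in one or both libraries, and at 11.1 mM the 1051st of 5633. The difference between the ratios at the 2 glucose levels was 1.80 (1.70 to 1.90). The ratio of 11.1 over 3.9 mM was 1.06 under vehicle (2.09-fold higher) and -0.74 under imeglimin (1.67-fold lower). These 2 ratios and the difference of 1.80 use the 3.9 mM libraries whose Oga values chose the group. No effect of glucose on Oga is therefore read from them.

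The difference at 3.9 mM was spread over many beta-like cells. At least 1 Oga UMI was seen in 30.5% (29.2 to 31.8) of vehicle and 63.7% (62.3 to 65.2) of imeglimin beta-like cells at 3.9 mM, and in 46.3% and 51.2% at 11.1 mM. With each cell thinned to 3000 UMIs, leaving out 32, 100, 49 and 72 shallower cells, the shares were 7.76%, 26.9%, 12.9% and 15.7%. Depth ran the other way at 3.9 mM, where the median was 12151 UMIs per beta-like cell with vehicle and 10090 with imeglimin. No class can be taken to lack this widely expressed gene, so a share that free RNA would give was not available. No beta-like cell of the 3.9 mM imeglimin library had more than 11 Oga UMIs, and 6.19% of them had 4 or more, against 0.194% with vehicle.

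**Figure D1:**
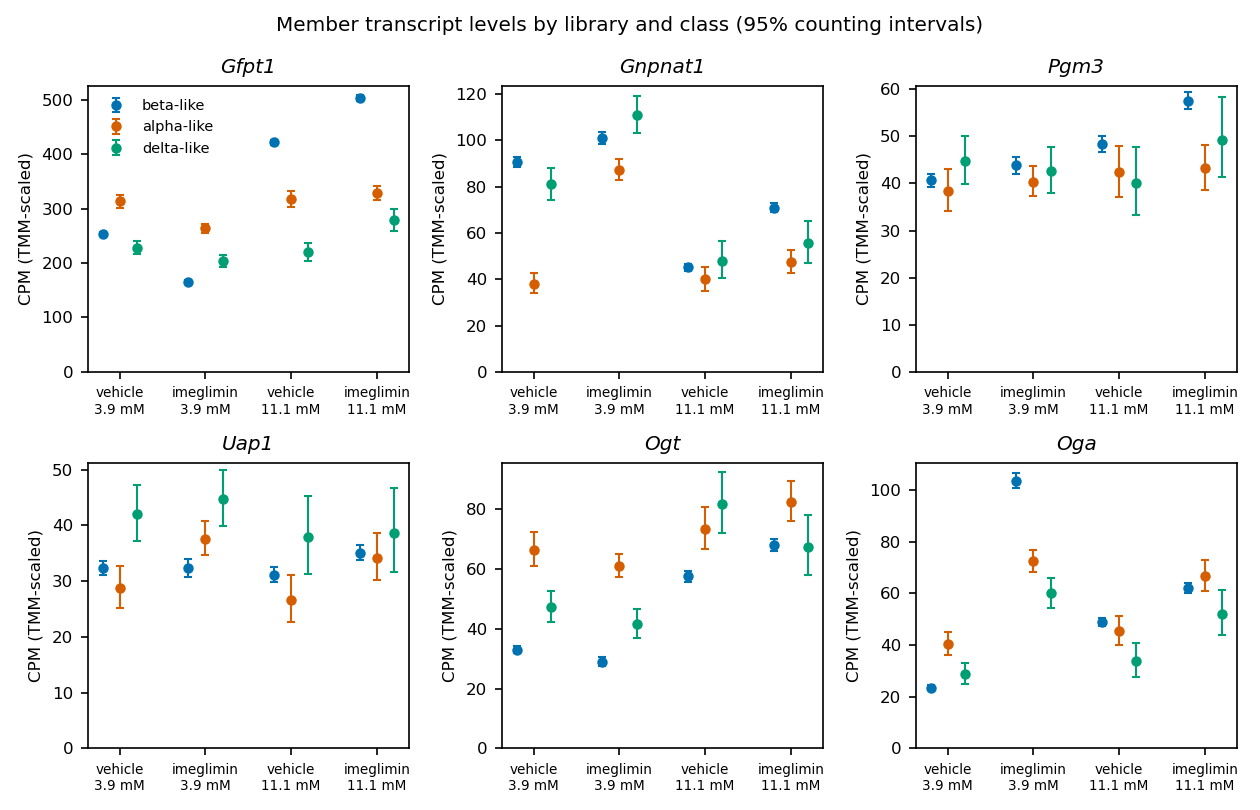
TMM-scaled CPM (y axis, from 0) of each of the 6 genes in the 4 libraries (x axis) for beta-like, alpha-like and delta-like cells; points are 1 library each and bars are 95% counting intervals. Beta-like Oga stands at 104 CPM with imeglimin at 3.9 mM against 23.5 to 62.1 CPM in the other libraries, while Gfpt1 is lowest there at 165 CPM.

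Higher Oga with imeglimin was not limited to beta-like cells: in 6 of 6 classes and at both glucose levels the ratio was above 0, with a counting interval above 0, and the level was also higher without the TMM factor. In each comparison, here and below, the 6 classes come from the same pair of libraries and share their preparation and free RNA. The classes are therefore not independent of each other. Alpha-like cells had 40.6 and 72.4 CPM at 3.9 mM (log2 ratio 0.83) and 45.3 and 66.6 CPM at 11.1 mM (0.56). Delta-like cells had 28.8 and 60.1 CPM at 3.9 mM (1.06) and 33.7 and 51.9 CPM at 11.1 mM (0.62). The difference between the ratios at 3.9 and 11.1 mM was 0.28 (-0.0012 to 0.56) in alpha-like and 0.44 (-7.3e-05 to 0.88) in delta-like cells, and both intervals reach 0. Macrophage-like cells had 29.9 and 110 CPM at 3.9 mM (1.88) and 43.3 and 71.5 CPM at 11.1 mM (0.72), a difference of 1.16 (0.39 to 1.93). Endothelial-like cells had 48.9 and 131 CPM at 3.9 mM (1.42, 1.07 to 1.79) and 61.5 and 166 CPM at 11.1 mM (1.44, 1.12 to 1.77). Stromal-like cells had 25.2 and 58.2 CPM at 3.9 mM (1.21), from 20 and 40 UMIs, and 43.0 and 101 CPM at 11.1 mM (1.24). The ratios at the 2 glucose levels differed by -0.02 (-0.49 to 0.45) in endothelial-like and by -0.03 (-0.98 to 0.92) in stromal-like cells, so these counts do not show whether the ratio depended on glucose there. Endothelial-like Oga with imeglimin was above the beta-like level of the same library at each glucose level. In the summed UMIs of beta-like cells, the 6 endothelial markers made up 0.000145% to 0.000179%.

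RNA of beta cells was also seen in the other classes. At 3.9 mM the 8 beta markers together made up 1.34% of UMIs with vehicle and 6.86% with imeglimin in alpha-like cells and 11.9% and 15.2% in delta-like cells. The shares were 3.97% and 6.24% in endothelial-like, 5.42% and 10.2% in macrophage-like and 5.31% and 6.27% in stromal-like cells. At 11.1 mM the shares with vehicle and imeglimin were 2.63% and 3.33% in alpha-like, 10.0% and 12.2% in delta-like and 9.33% and 10.3% in endothelial-like cells. They were 11.6% and 9.66% in macrophage-like and 14.5% and 9.58% in stromal-like cells, lower with imeglimin. The part of beta-cell RNA in the Oga ratios of the other classes was not tested.

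Oga reached 1.5-fold in 6 of 6 classes at 3.9 mM and in 4 of 6 at 11.1 mM. Without the TMM factor the alpha-like ratio at 3.9 mM was 0.58, just under 1.5-fold, and the delta-like ratio at 11.1 mM was 0.54; at the coarser cluster resolution the latter was 0.44. In alpha-like cells 99.1% (3.9 mM) and 96.3% (11.1 mM) of imeglimin cells lay in cluster 5, and 81.3% and 74.2% of vehicle cells in cluster 6. The gene that led cluster 5 was Ppy, a pp marker. Clustered alone, the vehicle libraries had Ppy-led clusters of 102 and 114 cells at 3.9 and 11.1 mM, and the imeglimin libraries of 547 and 382. Whether the vehicle cells of cluster 5 are mostly pp cells was not tested, so its conditions may differ in cell mix. Within cluster 5 alone Oga was at 34.9 unscaled CPM in 140 vehicle cells and 65.2 in 1609 imeglimin cells at 3.9 mM. At 11.1 mM it was at 30.3 in 191 and 64.9 in 982 cells. In the same cells of cluster 5 the beta markers made up 2.23% of UMIs with vehicle and 6.89% with imeglimin at 3.9 mM, and 4.19% and 3.40% at 11.1 mM. The part of beta-cell RNA and of the cell mix in these cluster 5 values was not tested.

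**Figure D2:**
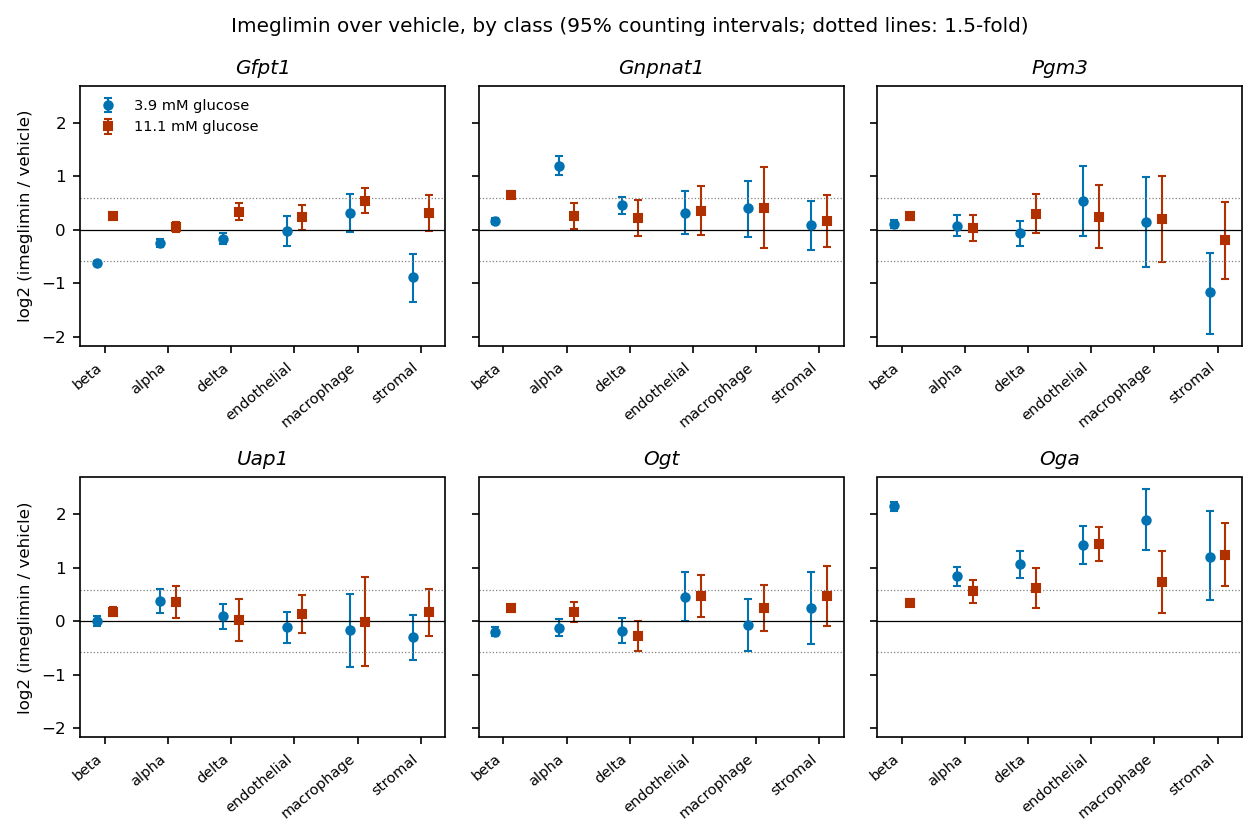
log2 ratio of imeglimin over vehicle (y axis) for each gene in 6 cell classes (x axis) at 3.9 mM (circles) and 11.1 mM glucose (squares), with 95% counting intervals; dotted lines mark 1.5-fold. Oga lies above 0 in all classes at both glucose levels, from 0.34 to 2.14, and Gfpt1 in beta-like cells is -0.63 at 3.9 mM and 0.25 at 11.1 mM.

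Ogt, which encodes the enzyme that adds O-GlcNAc, was higher at 11.1 than at 3.9 mM glucose in beta-like cells. It was at 33.0 and 28.9 CPM at 3.9 mM with vehicle and imeglimin, and at 57.5 and 67.9 CPM at 11.1 mM. Both 11.1 mM libraries were above both 3.9 mM libraries. The ratio of 11.1 over 3.9 mM was 0.80 (1.74-fold) under vehicle and 1.23 (2.35-fold) under imeglimin, and imeglimin over vehicle was -0.19 (-0.29 to -0.10) at 3.9 mM and 0.24 (0.18 to 0.30) at 11.1 mM. Without the TMM factor the glucose ratio under vehicle was 0.40, under 1.5-fold, and the drug ratio at 3.9 mM was -0.50. The glucose ratio was above 0 in 6 of 6 classes in each arm, with counting intervals above 0 in 3 of 6 under vehicle and 5 of 6 under imeglimin. Delta-like Ogt was at 47.2 and 41.6 CPM at 3.9 mM and at 81.7 and 67.4 CPM at 11.1 mM, the same order of glucose levels as in beta-like cells. Alpha-like Ogt was nearer to level, at 66.4 and 60.9 CPM and then 73.3 and 82.5 CPM.

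Oga UMIs per 100 Ogt UMIs of the same cells need no scaling between libraries. In beta-like cells there were 71.1 (66.9 to 75.5) with vehicle and 359 (339 to 381) with imeglimin at 3.9 mM, and 85.1 (81.2 to 89.2) and 91.5 (87.8 to 95.4) at 11.1 mM. The beta-like balance thus moved towards Oga with imeglimin at low glucose and hardly at 11.1 mM. In alpha-like cells the values were 61.1, 119, 61.8 and 80.7, and in delta-like cells 61.1, 144, 41.2 and 77.0. Endothelial-like cells had 136, 265, 119 and 232, macrophage-like cells 41.8, 162, 50.6 and 70.4, and stromal-like cells 51.3, 100, 75.9 and 129. In each of the 6 classes the value was higher with imeglimin at both glucose levels. At 3.9 mM the intervals with vehicle and imeglimin were apart in every class but the stromal-like one, and at 11.1 mM they were apart in the delta-like and endothelial-like classes and overlapped in the others.

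**Figure D3:**
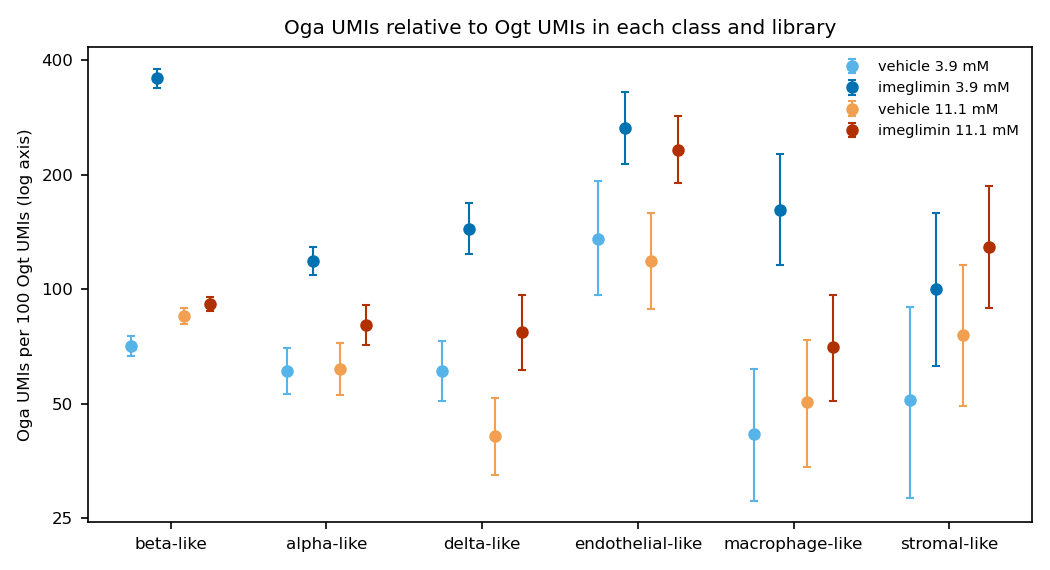
Oga UMIs per 100 Ogt UMIs (y axis, log scale) in 6 cell classes (x axis) and the 4 libraries, with 95% counting intervals. The beta-like value with imeglimin at 3.9 mM, 359, stands above 71.1 with vehicle at 3.9 mM, and the 2 beta-like values at 11.1 mM are 85.1 and 91.5.

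Gfpt1, whose enzyme opens the hexosamine branch, was lower with imeglimin at 3.9 mM and a little higher at 11.1 mM in beta-like cells. It was at 254 and 165 CPM at 3.9 mM and at 422 and 503 CPM at 11.1 mM, so imeglimin gave the lowest library at low glucose and the highest at high glucose. The drug ratio was -0.63 (-0.66 to -0.59), or 1.54-fold lower, at 3.9 mM and 0.25 (0.23 to 0.28) at 11.1 mM. The glucose ratio was 0.73 (1.66-fold) under vehicle and 1.61 (3.05-fold) under imeglimin. Alpha-like Gfpt1 was flatter, at 313 and 264 CPM at 3.9 mM and 318 and 329 CPM at 11.1 mM. Delta-like Gfpt1 was at 229 and 203 CPM and then 220 and 279 CPM. Macrophage-like Gfpt1 was at 118 and 147 CPM at 3.9 mM and 245 and 357 CPM at 11.1 mM, so there too both high-glucose libraries were above both low-glucose ones. Over the 6 classes the counting interval of the drug ratio at 3.9 mM lay below 0 in 4 and above 0 in 0; at 11.1 mM it lay above 0 in 3 and below 0 in 0.

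Gnpnat1, whose enzyme acetylates glucosamine phosphate, was lower at high glucose in beta-like cells. It was at 90.6 and 101 CPM at 3.9 mM and at 45.1 and 71.0 CPM at 11.1 mM. The glucose ratio was -1.005 under vehicle (2.01-fold lower) and -0.51 under imeglimin, and the drug ratio was 0.16 (0.11 to 0.21) at 3.9 mM, -0.15 without TMM, and 0.65 (0.59 to 0.72), or 1.57-fold, at 11.1 mM. Alpha-like cells differed from this: Gnpnat1 was at 38.1 CPM with vehicle and 87.2 CPM with imeglimin at 3.9 mM (1.20, 1.02 to 1.38), and at 39.95 and 47.5 CPM at 11.1 mM (0.25). 3 of the 4 alpha-like libraries were thus alike, and imeglimin at 3.9 mM stood above them. Alpha-like cluster 5, led by Ppy, may hold a different mix of cells in each condition. Within it alone the unscaled Gnpnat1 levels were 41.2 with vehicle and 78.8 with imeglimin at 3.9 mM, and 38.2 and 47.8 at 11.1 mM. The beta-marker share of those cells, given above, was also higher with imeglimin at 3.9 mM, and beta-like Gnpnat1 in that library was at 101 CPM; its part in the alpha-like ratio was not tested. At the coarser cluster resolution and without TMM the alpha-like ratio at 3.9 mM was 0.71 to 0.95. Delta-like Gnpnat1 was at 81.0 and 111 CPM at 3.9 mM and at 48.0 and 55.6 CPM at 11.1 mM, the beta-like order of glucose levels.

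Pgm3 and Uap1, the last steps to UDP-GlcNAc, moved little. Beta-like Pgm3 was at 40.7 and 43.8 CPM at 3.9 mM and at 48.4 and 57.6 CPM at 11.1 mM, with drug ratios of 0.11 (-0.20 without TMM) and 0.25. Beta-like Uap1 was at 32.4 and 32.4 CPM at 3.9 mM and at 31.1 and 35.1 CPM at 11.1 mM, with drug ratios of -0.0019 (-0.31 without TMM) and 0.17. Neither reached 1.5-fold in any of the 4 beta-like comparisons. In the other classes Uap1 stayed within 1.5-fold in all 4 comparisons, and Pgm3 did except in stromal-like cells, where it was lower with imeglimin at 3.9 mM (-1.17) and lower at 11.1 mM than at 3.9 mM glucose under vehicle (-0.61).

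With imeglimin at 11.1 mM the ratios of all 6 members were above 0, from 0.17 (Uap1) to 0.65 (Gnpnat1), at ranks 2248 to 216 from the highest of 5633 genes. The median of those genes was 0.11, so most of them were above 0 too, and nothing is read from the common sign. Of the 6, Uap1 alone was below 0 under an alternative, at -0.0076 with CPM computed without hormone and mitochondrial genes. In the other 3 beta-like comparisons members lay on both sides of 0. All 6 passed the minimum of 20 CPM in every beta-like comparison. With imeglimin at 3.9 mM, 1 of 6 (Oga) was at least 1.5-fold higher and 1 (Gfpt1) at least 1.5-fold lower, where 12.6% and 10.4% of the 5998 genes were; since this contrast chose the group, nothing is read from it. At 11.1 mM, 1 of 6 (Gnpnat1) was higher and 0 lower, against 5.47% and 4.47% of 5633 genes. With glucose under vehicle, 3 of 6 were higher (Gfpt1, Oga, Ogt) and 1 lower (Gnpnat1), against 10.1% and 19.7% of 5894 genes. Without the TMM factor 2 of 6 rather than 4 were apart there, with Gfpt1 at 0.33 and Ogt at 0.40. Under imeglimin 2 were higher (Gfpt1, Ogt) and 1 lower (Oga), against 15.1% and 24.0% of 6043 genes. The median ratio of the 6 members with glucose was 0.49 under vehicle and 0.26 under imeglimin, where that of all genes was -0.15 and -0.14. With imeglimin the members' medians were 0.05 at 3.9 mM and 0.25 at 11.1 mM, and those of all genes 0.11 and 0.11. The 4 comparisons share libraries and are not independent of each other. Oga enters the glucose counts and medians through the 3.9 mM libraries that chose the group, so nothing is read from its part in them. Without the TMM factor the median of all genes was -0.20 at 3.9 mM and 0.07 at 11.1 mM for the drug, and -0.55 and -0.27 for glucose under vehicle and imeglimin.

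In alpha-like cells, with a minimum of 50 CPM, 2 of the 4 members compared at 3.9 mM (Gnpnat1 and Oga) were at least 1.5-fold apart, where 29.2% of 3299 genes were. At 11.1 mM 0 of 3 were, against 10.2% of 3021 genes. In delta-like cells 1 of 3 (Oga) was at 3.9 mM, against 11.3% of 3403 genes, and 1 of 4 (Oga) at 11.1 mM, against 7.51% of 3171 genes. Members that passed this minimum only through a library where they were high had to differ, so these counts are given for completeness.

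**Figure D4:**
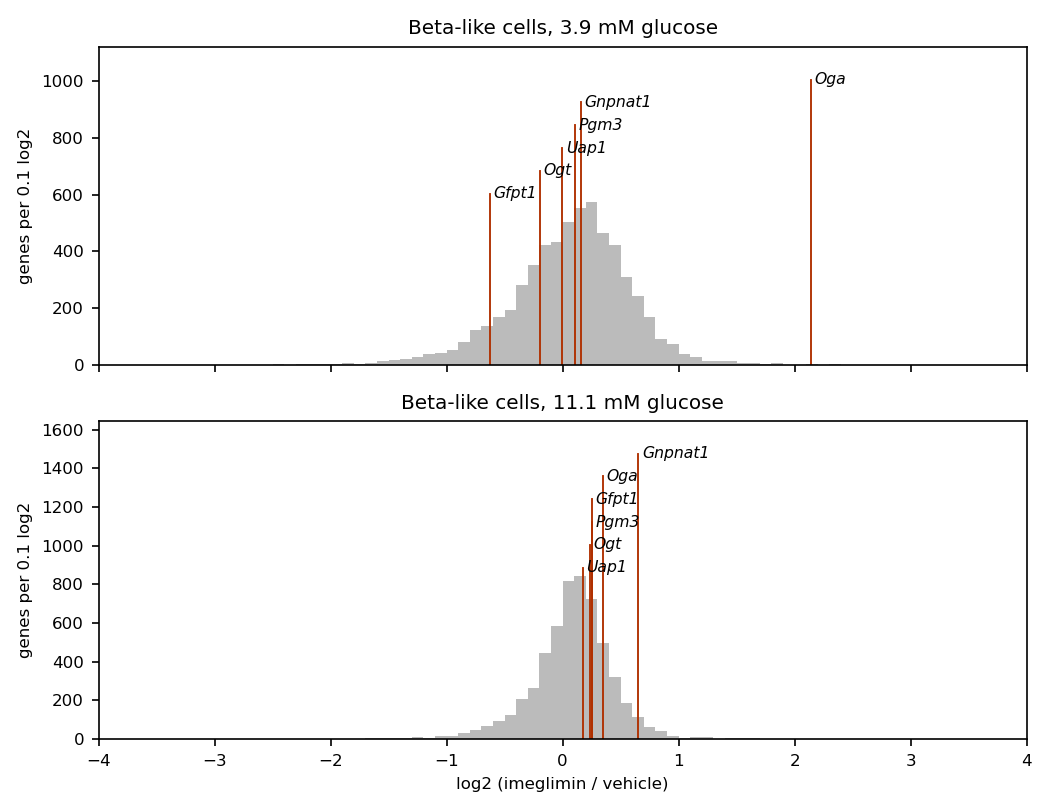
Number of genes per 0.1 log2 (y axis) by ratio of imeglimin over vehicle (x axis, log2) in beta-like cells, for genes that reached 20 CPM in one or both libraries; red lines mark the 6 members. At 3.9 mM Oga, at 2.14, lies far to the right of the 5998 genes' centre (median 0.11) and Gfpt1 at -0.63 to its left, and at 11.1 mM the members lie between 0.17 and 0.65.

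Because beta-like cells of different conditions fell into different clusters, the levels were also set side by side within clusters, unscaled. In cluster 2, mostly vehicle cells at 3.9 mM, Oga was at 28.6 CPM in 4228 vehicle cells and 106 in the 151 imeglimin cells. In cluster 4, mostly imeglimin cells at 3.9 mM, it was at 26.9 in 171 vehicle cells and 110 in 2874 imeglimin cells. In both clusters Oga was higher in the imeglimin cells. Ogt was at 40.02 CPM with vehicle and 68.8 with imeglimin in cluster 2, and at 34.6 and 33.0 in cluster 4. Gfpt1 was lower with imeglimin in cluster 4 and hardly in cluster 2: in cluster 2 it was at 309 and 301 CPM with vehicle and imeglimin, and in cluster 4 at 299 and 177. Cluster 8, led by Derl3 and Nfkbia, held 1156 imeglimin cells at 3.9 mM. They had the lowest Ogt (9.87) and Gfpt1 (102) of all beta-like clusters and libraries shown, and low Gnpnat1 (31.8), while their Oga was at 81.0. The 8 beta markers made up 46.0% of UMIs in those cells. At 3.9 mM the share was 16.8% in vehicle cells of cluster 2 and 19.7% in imeglimin cells of cluster 4. In vehicle cells of cluster 17 at 11.1 mM it was 46.1%. A larger share leaves less unscaled CPM for other genes, and its part was not tested. With cluster 8 left out, an alternative chosen after seeing the data, the beta-like drug ratio at 3.9 mM was -0.09 for Ogt in place of -0.19, -0.63 for Gfpt1 and 2.08 for Oga. In cluster 7, at 11.1 mM, Oga was at 31.5 in 782 vehicle cells and 58.4 in 2046 imeglimin cells. The gap was smaller in cluster 3, at 44.0 in 1355 vehicle cells and 65.4 in 181 imeglimin cells. It was smaller too in cluster 17, at 50.9 in 2415 vehicle cells and 63.1 in 112 imeglimin cells. An unnamed cluster of few UMIs (20), outside the beta-like class, had Oga at 58.5 in 325 vehicle cells and 124 in 936 imeglimin cells at 3.9 mM, from 43 and 205 UMIs. At 11.1 mM its Oga was at 120 in 41 vehicle cells and 103 in 53 imeglimin cells, from only 9 and 13 UMIs.

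**Figure D5:**
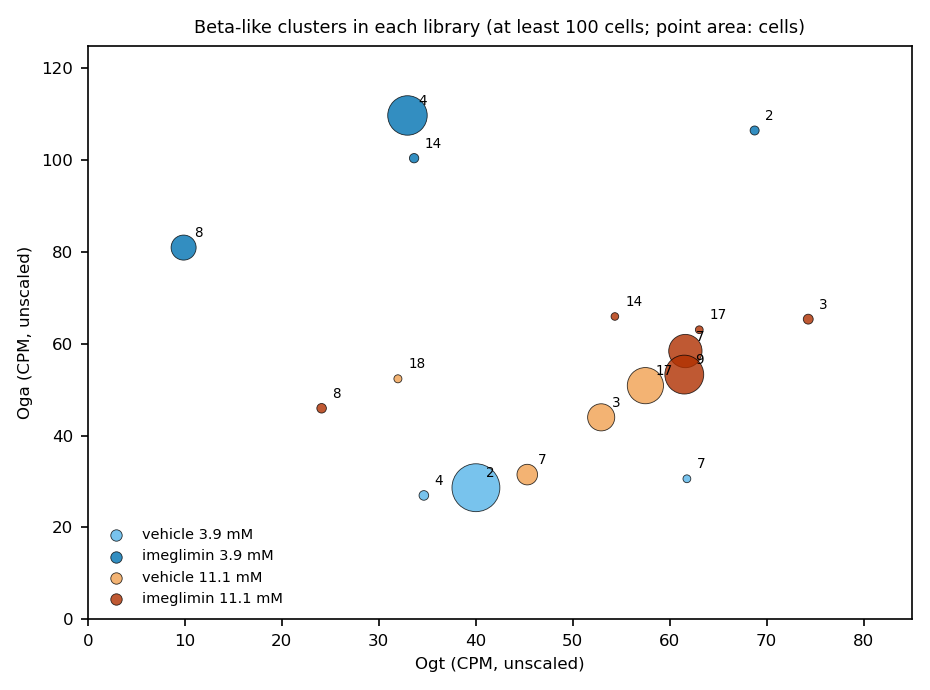
Unscaled CPM of Ogt (x axis) and Oga (y axis) in each beta-like cluster (number beside the point) of each library (colour) with at least 100 cells; the area of a point is proportional to its cells. The 4 points of imeglimin at 3.9 mM lie between 81.0 and 110 CPM of Oga, above every other point, while their Ogt runs from 9.87 to 68.8 CPM.

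Malat1, a long RNA that stays in the nucleus, moved with the drug as well. Its unscaled level in beta-like cells was 15158 and 24448 CPM with vehicle and imeglimin at 3.9 mM and 11317 and 20719 CPM at 11.1 mM, and in each of the other 5 classes it was higher with imeglimin at both glucose levels. Of the 5 nuclear-retained RNAs listed (Malat1, Neat1, Meg3, Xist and Kcnq1ot1), 4 passed the minimum at each glucose level. At 3.9 mM 1 was at least 1.5-fold higher (Malat1, 1.00) and 1 lower (Kcnq1ot1, -0.81; 2 lower without TMM), and at 11.1 mM 2 were higher (Malat1, 0.91, and Neat1, 0.83) and 0 lower. Whether more nuclear RNA in the imeglimin cells bears on Oga was not tested.

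Lists of further genes were compared in beta-like cells. As given above, 12.6% of all genes stood 1.5-fold or more above vehicle and 10.4% below it at 3.9 mM, and 5.47% and 4.47% at 11.1 mM. Without the TMM factor, an alternative for these lists chosen after seeing the data, the shares at 3.9 mM were 3.44% higher and 23.7% lower, and the median of all genes was -0.23. Of 16 genes of UDP-GlcNAc supply, recycling and branches, 10 were compared at 3.9 mM, with 0 at least 1.5-fold higher and 2 lower, and 11 at 11.1 mM, with 0 higher and 1 lower. The lower ones at 3.9 mM were Nagk, the kinase that salvages free GlcNAc (81.9 and 51.1 CPM with vehicle and imeglimin, -0.68), and Gpi1, the glycolytic isomerase that makes fructose phosphate (113 and 67.8 CPM, -0.74). At 11.1 mM it was Glul, glutamine synthetase (234 and 147 CPM, -0.66). The median of the list was -0.03 at 3.9 mM and 0.12 at 11.1 mM, against 0.11 and 0.11 for all genes. Without TMM 0 were higher and 4 of 12 lower at 3.9 mM. Of 19 genes that use or transport UDP-GlcNAc, 6 and 10 were compared, and only B3gnt2, which extends sugar chains with GlcNAc, reached 1.5-fold (22.4 and 36.4 CPM at 3.9 mM, 0.70). Without TMM 0 of 8 were higher and 3 lower at 3.9 mM. Of 11 partners of OGT, such as Hcfc1 and Tet2, 5 and 6 were compared, and 0 reached 1.5-fold at either glucose level.

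Splicing genes were listed because splicing is known to set the amount of mature Ogt and Oga transcripts. Of 20 splicing kinases and regulators, 19 were compared at each glucose level. At 3.9 mM 10 were at least 1.5-fold higher with imeglimin and 1 lower, with a median of 0.59 against 0.11 for all genes. Highest were Snrnp48, a component of the minor spliceosome (56.1 and 199 CPM, 1.82), and Tra2b, a splicing activator (85.9 and 216 CPM, 1.33), and the lower one was the SR protein gene Srsf5 (151 and 96.1 CPM, -0.65). Without TMM 4 were higher and 3 lower at 3.9 mM, with a median of 0.28 against -0.23 for all genes. At 11.1 mM 0 were higher and 0 lower, and the median was -0.09 against 0.11. The high ratio of Snrnp48 was known when the list was drawn up, so the list is not independent of these libraries.

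Gfpt1 is a known target of XBP1, a factor of the unfolded protein response, and of the stress factor ATF4. Of 15 genes of the XBP1 and ATF4 arms, 5 stood 1.5-fold or more above vehicle with imeglimin at 3.9 mM and 1 below, and of the 14 compared at 11.1 mM 8 were higher and 0 lower. At 3.9 mM the highest were Derl3 (2.57) and Creld2 (1.08), both of protein quality control in the endoplasmic reticulum, and the lower one was Edem1 (-0.84). At 11.1 mM they were Ddit3 (1.60) and Trib3 (1.58). The list's median was 0.25 and 0.62, against 0.11 and 0.11 for all genes. Without TMM 2 were higher and 3 lower at 3.9 mM, and 7 higher and 0 lower at 11.1 mM. Beside these, Gfpt1 was at -0.63 and 0.25. Of 8 genes of dissociation and heat shock, 4 of 6 compared were higher at 3.9 mM (Jun, 2.82, and Dnajb1, 1.66, the highest) and 0 lower, and at 11.1 mM 0 were higher and 5 of 8 lower (Hspa1b, -3.61, and Hspa1a, -3.33, the lowest, a pair of near-identical genes whose reads counting can split). The heat shock and dissociation genes past 1.5-fold were mostly different genes at the 2 glucose levels. The part of this list in the Oga values was not tested.

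Genes with a pattern like that of Oga were ranked over 12 sums (beta-, alpha- and delta-like cells in 4 libraries, which share depth and, within a library, free RNA) by Pearson's r of log2(CPM + 1), among 5809 genes with a mean of at least 20 CPM. Among the 3 nearest to Oga were Mob1b (0.91) and Dhx32 (0.87). Mob1b, which encodes an activator of Hippo pathway kinases, was at 44.9, 63.9, 52.2 and 59.5 CPM in beta-like cells in the order of conditions given first, so it had the same order of libraries as Oga over a much smaller range. Nearest to Ogt were Leng8 (0.96), the mitochondrially encoded mt-Nd1 (0.96) and the helicase gene Ddx46 (0.95). Between members, Oga and Ogt had r of -0.04, Ogt and Gfpt1 0.57, and Ogt and Gnpnat1 -0.77.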

How the data were processed

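The deposited matrices hold UMI counts, as whole numbers, for every gene in every barcode, made by the authors with Cell Ranger 6.0.2 on mm10, per the submitters' processing notes; they were used as raw counts. Whether intronic reads were counted is not given in the sources used here. The 6 members, the gene lists and the rule for naming genes were chosen with earlier results of these data known. A barcode was kept from 1000 UMIs and 500 genes upwards, with no more than 20% of its UMIs mitochondrial. Scrublet called 0 doublets in each library, so the caller did not work, and no cell was removed as a doublet. Cells of the 4 libraries were clustered together with scanpy 1.11.5, without integration (2000 variable genes, 30 principal components, 15 neighbours, Leiden resolution 1). Naming a cluster from markers needed at least 3 of them in at least 10% of its cells and a marker score of at least 0.2. Clusters of mixed markers or few UMIs were left unnamed. Unnamed cells were 12.3%, 14.8%, 11.4% and 9.24% of kept cells in the order of the 4 conditions, and are in no class. UMIs were summed per class and library and scaled with TMM (edgeR 4.0.16) to CPM. Exact Poisson and Clopper-Pearson 95% intervals cover counting error only. A ratio of 1.5-fold marks size, not a test. Named from each list were up to 2 highest and 2 lowest ratios past 1.5-fold in beta-like cells, and for Oga and Ogt the 3 genes of highest correlation, of which 1 is not reported here. The ratio step was tested on simulated counts. Of 32285 gene identifiers 32158 matched GENCODE vM21. Alternatives were other scalings, thinning, cell limits, doublet removal, other clusterings and leaving out cluster 8. All 4 libraries were used.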

Additional observations from a re-analysis of the deposited data

Results flagged for a closer look

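In beta-like cells, with 1 library per condition, 2 of the 6 genes had drug ratios on opposite sides of 0 at the 2 glucose levels and counting intervals clear of 0. Uap1 was at -0.0019 (-0.09 to 0.09) at 3.9 mM and 0.17 at 11.1 mM, so its first interval took in 0. Without the TMM factor Gnpnat1 (-0.15 and 0.62) and Pgm3 (-0.20 and 0.22) lay on opposite sides of 0 as well. The share of all genes with such opposite ratios was not counted. For Gfpt1 the log2 ratio of imeglimin over vehicle was -0.63 at 3.9 mM and 0.25 at 11.1 mM, a difference of -0.88. For Ogt it was -0.19 and 0.24, a difference of -0.43. The difference was not tested for either gene, since no condition has a replicate library. Across the 10 alternatives computed, Gfpt1 ran from -0.93 to -0.62 at 3.9 mM and from 0.07 to 0.26 at 11.1 mM, and Ogt from -0.50 to -0.09 and from 0.06 to 0.25. The smallest Ogt ratio at 3.9 mM, -0.09, was that without cluster 8, which held 1156 imeglimin cells at 3.9 mM with Ogt at 9.87 unscaled CPM. Within cluster 2 Ogt was at 40.02 unscaled CPM with vehicle and 68.8 with imeglimin at 3.9 mM, and within cluster 4 at 34.6 and 33.0. On the same unscaled measure the whole class was at 40.3 with vehicle and 28.5 with imeglimin at 3.9 mM. That lower level was not seen within cluster 2, where imeglimin had 93 Ogt UMIs in 151 cells, and hardly within cluster 4.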

How the results depend on the processing

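No paired analysis was possible because each condition has 1 library and no replicate number. The beta-like Oga ratio at 3.9 mM, 2.14, was 1.84 with plain CPM, 1.99 with CPM computed without hormone and mitochondrial genes, 2.04 as the mean of per-cell CPM and 2.25 with cells thinned to 3000 UMIs. At 11.1 mM, 0.34 became 0.16 without hormone and mitochondrial genes, 0.22 as the mean of per-cell CPM and 0.27 when thinned. Oga kept its direction under all 10 alternatives in both comparisons, of which leaving out cluster 8 was chosen after seeing the data. The count of members at least 1.5-fold apart with imeglimin at 11.1 mM, 1, was 0 under those last 3 settings, where Gnpnat1 was at its lowest 0.47, and that with glucose under vehicle, 4, was 2 with plain CPM, where the shift of the median of all genes took Gfpt1 to 0.33 and Ogt to 0.40. Small ratios of Pgm3 and Uap1, of alpha-like Gfpt1 at 11.1 mM and of Gnpnat1 with imeglimin at 3.9 mM, changed sign under some scalings. In alpha- and delta-like cells 2 alternatives were computed, and Ogt changed sign under one of them in alpha-like cells at 3.9 mM and in delta-like cells at 11.1 mM, to 0.15 and 0.13. With each library clustered alone, no delta-like class was named in either 11.1 mM library, so no delta-like value is given for that setting. The intervals leave out variation between mice, cultures and library preparations, which 1 library per condition cannot show.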
